A study of Arabidopsis thaliana with 35 samples.

Results

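The comparison set seedlings of the *Arabidopsis* clock double mutant *cca1lhy* against wild type (WT) at 22 °C, 1 h after lights on (ZT1). It rests on 8 of the 35 libraries of the study, 4 of each genotype, chosen by their labels for genotype, temperature and time, and on all 25727 of the 37898 genes in the table that lay above the lowest value in at least 3 of the libraries collected at ZT1. Both groups were Col-0 seedlings, harvested whole at 12 days after growth on MS medium with 1.5% sucrose in cycles of 12 h light and 12 h dark at a constant 22 °C. The mutant, *cca1-1/lhy-20*, came from a cross between single mutants that were both in Col-0 and is named as a single line. Neither group had been moved to another temperature; in the study they are the untreated controls of seedlings placed for 1 h at 37 °C or 10 °C.

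CCA1 and LHY are closely related MYB transcription factors whose mRNA peaks at dawn. In the plant clock they repress genes that are expressed later in the day, among them *TOC1*, *GI* and the genes of the evening complex, and many of these carry a short promoter sequence called the evening element. As their own levels fall during the day, the pseudo-response regulators PRR9, PRR7, PRR5 and TOC1 follow in sequence and repress *CCA1* and *LHY* in turn. At ZT1 the repressors are near their peak in WT, so genes of the evening are near their trough. A single time of day was sampled, so a change in level and a shift in the time of peak expression cannot be told apart.

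The evening element, AAAATATCT on either strand, was searched from 250 bases before to 50 bases after each annotated start. The stretches below are those of 6 evening clock genes and of *CCL* and *MEE14*, all higher in *cca1lhy* and described further on. They are given 5′ to 3′ in the direction of transcription, with the element in capitals and up to 30 bases on each side, clipped at the annotated start (RefSeq sequence and annotation, TAIR10.1).

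*TOC1* (chr5:24674782-24674850, + strand): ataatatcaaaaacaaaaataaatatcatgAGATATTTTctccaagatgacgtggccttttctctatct

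*PRR5* (chr5:8358695-8358763, − strand): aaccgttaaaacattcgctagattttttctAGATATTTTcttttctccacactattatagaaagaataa

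*FKF1* (chr1:25508423-25508491, + strand): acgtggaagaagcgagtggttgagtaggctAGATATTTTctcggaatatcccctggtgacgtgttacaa

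*LUX* (chr3:17182959-17183027, + strand): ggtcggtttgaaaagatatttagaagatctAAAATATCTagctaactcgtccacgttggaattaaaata

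*GRP7* (chr2:9266558-9266663, − strand): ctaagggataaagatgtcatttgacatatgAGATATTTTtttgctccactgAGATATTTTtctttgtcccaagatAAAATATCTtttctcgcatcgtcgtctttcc

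*GRP8* (chr4:18275217-18275258, − strand): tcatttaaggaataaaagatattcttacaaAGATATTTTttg

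*CCL* (chr3:9827559-9827627, + strand): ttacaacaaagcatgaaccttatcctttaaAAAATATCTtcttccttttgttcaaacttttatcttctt

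*MEE14* (chr2:6922189-6922257, − strand): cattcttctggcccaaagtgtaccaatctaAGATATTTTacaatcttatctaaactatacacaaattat

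In *TOC1*, *PRR5*, *FKF1*, *GRP8* and *MEE14* the element was found in reverse complement, AGATATTTT, and in *LUX* and *CCL* as AAAATATCT. The *GRP7* stretch held 3 copies in both orientations. Counted from its last base, the element ended 143 bases before the annotated start in *TOC1*, 179 in *PRR5*, 178 in *FKF1* and 45 in *LUX*. Of the other genes described below that rose, *MYBL2* held 1 element, 213 bases before its start, and *RPP4* held 2, at 241 and 111 bases. *LTI30* and *GWD1* held 1 each that touched or followed the start, and *FKF1* held another there. *FLS1*, which fell, held 1 element 147 bases before its start. Of the morning and day clock genes that were not called, *RVE7* held 1 at 42 bases and *PRR9* 1 that touched or followed the start.

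All values are the levels deposited by the authors, in log2 CPM (counts scaled to library size), to which 5 counts had been added before scaling. A gene with no read therefore has the value 1.23, the lowest in the table, and the log2 fold change (LFC, *cca1lhy* minus WT) of a weakly expressed gene understates its change. LFCs are given ± standard error from limma, and differentially expressed genes (DEGs) have a Benjamini-Hochberg adjusted p (FDR) under 0.05 and an LFC beyond 1 in either direction. Reads recovered from the steps between values gave 1.09 to 3.90 M (mega) reads per WT library and 1.87 to 3.21 M per *cca1lhy* library. All 8 libraries carry the same flowcell number, and the study calls them biological replicates. Replicate 2 of *cca1lhy* stood apart: it had the highest levels of the seed storage transcripts *CRU3* (8.04 log2 CPM, against 4.61 to 6.57 in the other 7 libraries) and *CRA1* (8.50, against 6.18 to 7.60), and over the genes called without it lay at 0.82 of the way from WT to the other mutant libraries, against 0.92 to 0.97 for the other 3. The libraries also differed by transcript length, with deviations from the group mean that correlated with log2 length across genes between −0.388 (WT replicate 2) and 0.386 (*cca1lhy* replicate 1), and the part of this in the results was not tested. Root, leaf and seed markers had median LFCs of −0.01, −0.43 and 0.19, with 0 DEGs of 10, 9 and 6 genes and 1, 6 and 0 at an unadjusted p under 0.05 (limma), beside 14.7% of all genes tested. Without *cca1lhy* replicate 2 the seed median was −0.05. At an adjusted p under 0.05 with any fold, the leaf markers *CA1*, a carbonic anhydrase, and *SBPASE*, an enzyme of carbon fixation, were lower (adjusted p = 0.03 and 0.012, limma).

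The targeted genes were checked first. *CCA1* (AT2G46830) was at 8.83, 8.26, 8.52 and 8.72 log2 CPM in WT and at 2.29, 5.29, 2.48 and 2.03 in *cca1lhy*, where the 5.29 of replicate 2 stands for 74 reads and the others for 5, 12 and 3. The genotypes did not overlap, and the mutant library nearest to WT was again replicate 2. *CCA1* fell by 5.56 ± 0.42 on the log2 scale (adjusted p = 4.2e-09, limma; n = 4 per group), and by 6.31 when that library was left out.

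*LHY* (AT1G01060) was at 9.41, 8.44, 8.80 and 9.27 in WT and at 6.55, 6.88, 6.21 and 5.94 in *cca1lhy*. Every mutant library was lower than every WT library, but all kept reads of the gene. *LHY* fell by 2.59 ± 0.19 (adjusted p = 3.3e-09, limma). The values are sums over a gene's exons, so which part of either gene the remaining reads came from was not tested.

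Over all genes tested 442 were DEGs (1.72%), with 343 higher in *cca1lhy* (1.33%) and 99 lower (0.385%). The larger part of the DEGs was thus higher in the mutant, 77.6%. This split depended on scaling: centring each library on 8 reference genes gave 550 higher and 38 lower, or 93.5% higher, and moved the median LFC of all genes from 0.00 to 0.19. Of those reference genes *UBQ10*, a polyubiquitin, and *GAPC2*, a glyceraldehyde-3-phosphate dehydrogenase, were themselves lower in *cca1lhy* (LFC −0.86 and −0.83, adjusted p = 0.017 and 0.0047, limma), and centring on the other 6 gave 323 higher and 109 lower. The DEGs had median LFCs of 1.36 for those higher and −1.13 for those lower, and 56 and 14 of them went beyond 2 and −2. In 426 of the 442 the 4 mutant values did not overlap the 4 WT values; over all genes tested this held in 4.47% (mutant higher) and 3.91% (mutant lower). The DEGs included 54 genes that the reference does not annotate as protein-coding or does not hold. The 1.33% higher and 0.385% lower of all genes tested are the background for the list counts below.

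**Figure D1:**
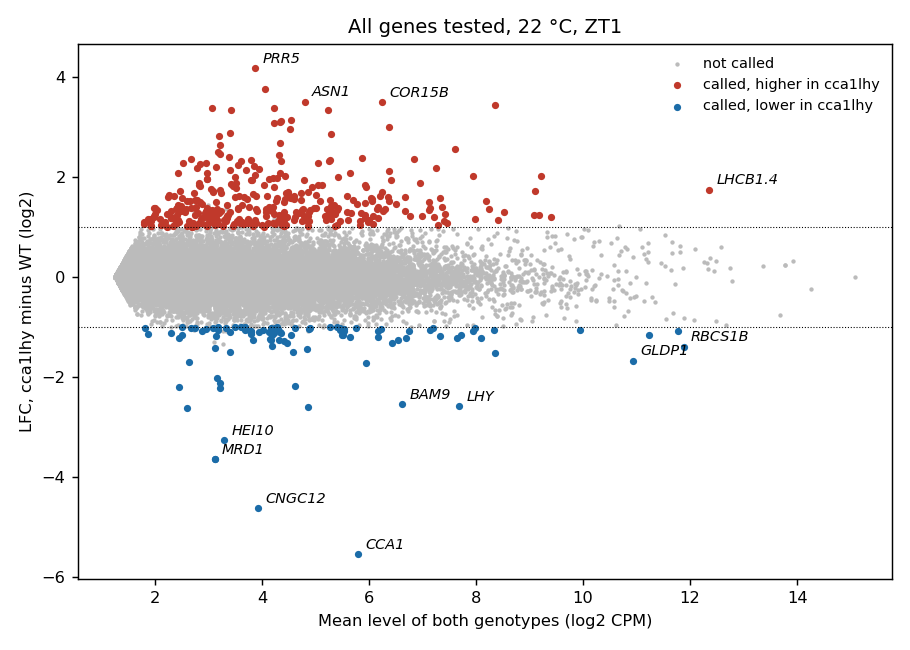
LFC of *cca1lhy* minus WT (vertical axis, log2) against the mean level of both genotypes (horizontal axis, log2 CPM) for the genes tested, leaving out those with a genotype wholly at the lowest value. Red and blue points are DEGs that are higher and lower in *cca1lhy*, grey points are not called and dotted lines mark an LFC of 1 and −1; *CCA1* lies lowest at −5.56, *PRR5* reaches 4.17, and red points outnumber blue ones.

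The genes of the evening clock were higher in *cca1lhy*. Of 17 members, all tested, 11 rose and none fell, with a median LFC of 1.21 against 0.00 over all genes tested. It was also 1.21 without *FKF1* and *COR27*, whose WT values were all at the lowest. The median lay between 1.16 and 1.27 as each library was left out in turn. No member fell under any library left out, and 10 to 12 were called higher.

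Among the repressors that follow *CCA1* and *LHY* through the day, *PRR5* (AT5G24470), active around dusk, was at 2.28, 1.23, 1.81 and 1.82 log2 CPM in WT and at 6.11, 5.63, 6.16 and 5.92 in *cca1lhy*. In WT this amounted to 10, 0, 1 and 2 reads, while the mutant libraries held from 94 to over 200. *PRR5* rose by 4.17 ± 0.20 (adjusted p = 9.5e-13, limma).

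*TOC1* (AT5G61380), the pseudo-response regulator of the early night and the founding partner of *CCA1* and *LHY* in the clock loop, was at 3.80, 3.32, 2.95 and 3.61 in WT and at 5.75, 5.49, 5.55 and 4.93 in *cca1lhy*. The lowest mutant value exceeded the highest WT value by more than the range within WT. The LFC was 2.02 ± 0.20 (adjusted p = 3.3e-07, limma). Their relative *PRR3*, which stabilises the TOC1 protein, lay at 1.23 to 1.84 in WT and at 2.34 to 2.91 in the mutant (LFC 1.15 ± 0.24, adjusted p = 0.0042, limma).

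*FKF1* (AT1G68050), a blue-light receptor F-box protein that removes repressors of flowering in the afternoon, was at 1.23 in all 4 WT libraries, with no read in any. In *cca1lhy* it was at 5.56, 5.87, 5.48 and 5.81, with 87, 110, 140 and 106 reads. With WT wholly at the lowest value no fold is given. Its relatives were not called. *ZTL*, which targets TOC1 for degradation, had LFC −0.26 ± 0.12 (adjusted p = 0.32, limma) and *LKP2* 0.05 ± 0.15 (adjusted p = 0.96, limma), with overlapping genotypes in both.

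*GI* (AT1G22770), which binds FKF1 and ZTL, was at 5.60, 4.70, 5.58 and 5.89 in WT and at 8.02, 7.08, 7.39 and 7.04 in *cca1lhy*. All mutant values were higher than all WT values, and the LFC was 1.94 ± 0.25 (adjusted p = 1.8e-05, limma).

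The 3 subunits of the evening complex, a night-time repressor, all rose. *ELF4* (AT2G40080) was at 2.22, 1.84, 2.13 and 1.53 in WT and at 4.32, 4.73, 4.37 and 4.29 in *cca1lhy* (LFC 2.50 ± 0.24, adjusted p = 1.9e-07, limma). *LUX* (AT3G46640), its DNA-binding subunit, was at 4.32, 4.38, 4.13 and 4.21 in WT and at 5.29, 5.59, 5.56 and 5.43 in *cca1lhy* (LFC 1.21 ± 0.12, adjusted p = 4e-07, limma). *ELF3* (AT2G25930), the scaffold, was at 4.13, 3.67, 3.84 and 3.78 in WT and at 5.35, 4.97, 4.94 and 4.57 in *cca1lhy* (LFC 1.10 ± 0.15, adjusted p = 4.3e-05, limma). None of the 3 overlapped between the genotypes, and the LFC of *ELF3* fell below the threshold when *cca1lhy* replicate 1 was left out. *BOA*, a close relative of *LUX*, was between 1.53 and 2.20 in WT and between 2.02 and 3.10 in the mutant and was not called (LFC 0.49 ± 0.22, adjusted p = 0.3, limma).

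Among the outputs and partners on the list, *GRP7* (AT2G21660), an RNA-binding protein of a clock-driven slave oscillator, was at 5.73, 6.76, 6.90 and 5.90 in WT and at 8.61, 8.85, 8.66 and 9.42 in *cca1lhy*. It rose by 2.57 ± 0.26 (adjusted p = 4e-07, limma), and its close relative *GRP8* (AT4G39260) by 1.39 ± 0.24 (adjusted p = 0.00054, limma), with no overlap in either. Reads of such similar genes can land on the relative, and the split between them is uncertain. *CHE*, a TCP factor that represses *CCA1*, rose from between 4.03 and 4.80 in WT to between 5.68 and 6.34 in the mutant (LFC 1.54 ± 0.22, adjusted p = 6.2e-05, limma). *COR27* (AT5G42900), a cold-regulated gene that represses *TOC1* and *PRR5*, was at 1.23 in all WT libraries and at 2.14, 2.22, 1.90 and 2.03 in *cca1lhy*, with 4, 5, 5 and 3 reads, a level too low for a fold. Its relative *COR28* was not called (LFC 0.86 ± 0.27, adjusted p = 0.07, limma), except without *cca1lhy* replicate 3 or when centred on the reference genes, nor was *JMJ30*, a histone demethylase (LFC −0.29 ± 0.34, adjusted p = 0.8, limma).

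**Figure D2:**
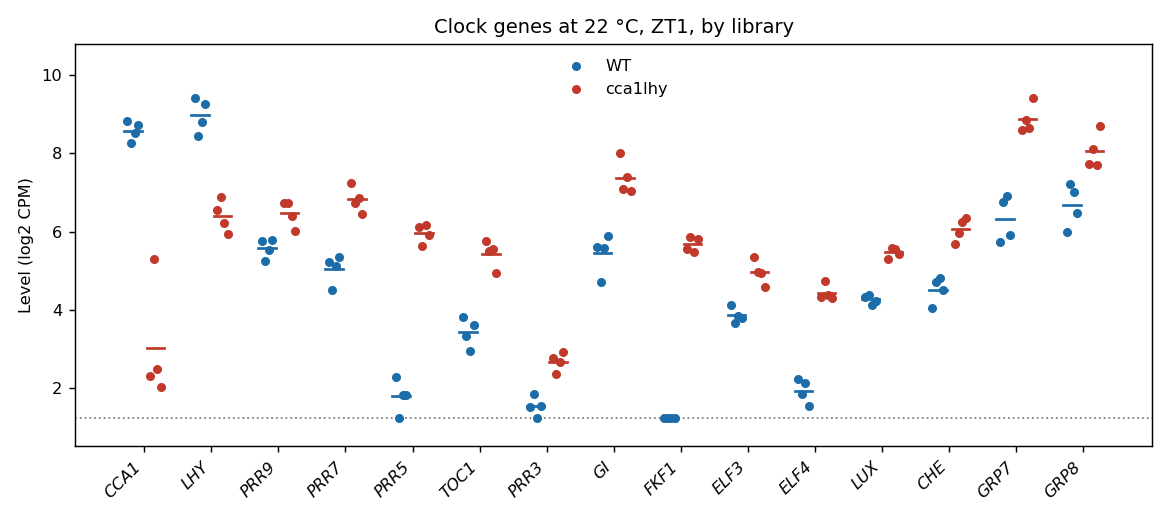
Levels of 15 clock genes in each library (vertical axis, log2 CPM), with WT in blue and *cca1lhy* in red, 1 point per library, bars for the group means and a dotted line at the lowest value in the table. *CCA1* and *LHY* are lower in every mutant library, the other 13 are higher in every mutant library, *CCA1* of replicate 2 lies at 5.29, and *FKF1* in WT lies on the dotted line. Listed clock genes whose genotypes overlapped are not shown, so the separation of the 15 restates their choice.

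The morning and day genes did not move together. Of 16 members 1 rose and 2 fell, the 2 being the mutated genes, and the median LFC was −0.16 (0.03 when centred on the reference genes). *PRR7* (AT5G02810), a repressor of *CCA1* and *LHY* that peaks around midday, was at 5.22, 4.50, 5.11 and 5.34 in WT and at 7.25, 6.74, 6.87 and 6.46 in *cca1lhy* (LFC 1.79 ± 0.19, adjusted p = 7.5e-07, limma). All mutant values lay above all WT values. *PRR9* (AT2G46790), which precedes it in the morning, was at 5.76, 5.25, 5.53 and 5.79 in WT and at 6.72, 6.72, 6.41 and 6.02 in *cca1lhy*. The genotypes were again separate, but the LFC of 0.88 ± 0.17 (adjusted p = 0.0026, limma) stayed under the fold threshold; it passed without *cca1lhy* replicate 4 and when centred on the reference genes.

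The REVEILLE genes, MYB factors related to *CCA1* and *LHY*, and the *LNK* genes, their transcriptional partners, were not called. *RVE8*, an activator of evening genes, lay between 5.37 and 5.68 in WT and between 5.49 and 5.89 in *cca1lhy* (LFC 0.13 ± 0.17, adjusted p = 0.83, limma). *RVE4* had LFC −0.24 ± 0.18 (adjusted p = 0.63) and *RVE6* 0.16 ± 0.24 (adjusted p = 0.86), both by limma. *RVE7* was the only member of the family with an adjusted p under 0.05 (LFC 0.58 ± 0.17, adjusted p = 0.049, limma), and the others, *RVE1*, *RVE2*, *RVE3* and *RVE5*, ran from −0.49 to 0.16. *LNK1* to *LNK4* ran from −0.28 to 0.35. Of 12 other clock-associated genes 0 were DEGs, and 1 had an unadjusted p under 0.05: *SKIP*, a splicing factor (LFC 0.59 ± 0.13, adjusted p = 0.0058, limma).

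Of 16 listed genes of photoperiodic flowering 14 were tested, of which 1 rose and none fell, with a median LFC of 0.02. In 8 the unadjusted p was under 0.05 (limma), beside 14.7% of all genes tested. *FT* and *TSF*, the florigen genes, did not pass the filter on low values. *SOC1* (AT2G45660), a MADS-box activator of flowering, was at 3.66, 2.46, 3.09 and 3.14 in WT and at 4.83, 4.73, 4.76 and 4.50 in *cca1lhy*, and was the DEG of the list (LFC 1.62 ± 0.25, adjusted p = 0.00018, limma). The CYCLING DOF FACTOR genes, flowering repressors with a morning peak, were not called. *CDF6* lay at 3.11 to 3.36 in WT and at 1.68 to 3.10 in *cca1lhy*, without overlap (LFC −1.06 ± 0.36, adjusted p = 0.1, limma). Without *cca1lhy* replicate 2, its highest mutant library, *CDF6* and *CDF2* were called lower (LFC −1.37 and −1.06, adjusted p = 0.031 and 0.0012, limma). *CDF3* and *SVP*, a MADS-box repressor of flowering, passed the p threshold at smaller folds (LFC 0.56 and 0.66, adjusted p = 0.0061 and 0.04, limma). *CO* lay near the lowest value, at 1.66 to 2.20 in WT and 1.52 to 2.20 in *cca1lhy* (LFC 0.10, adjusted p = 0.94, limma). At such a level a change would be understated. Outside this list, *NF-YB2* and *NF-YC2*, subunits of the trimeric factor that binds CO, were named after their values were seen. *NF-YB2* was at 6.58 to 6.91 in WT and 5.45 to 5.67 in *cca1lhy* (LFC −1.20 ± 0.15, adjusted p = 1.3e-05, limma), and *NF-YC2* at 5.86 to 6.68 and 4.89 to 5.35 (LFC −1.21 ± 0.16, adjusted p = 2.2e-05, limma). An overlapping antisense gene of *NF-YB2* was also called, and reads of the pair cannot be told apart where strand was not used.

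Of 13 B-box genes, zinc finger regulators of light responses, 2 rose. *BBX22* (AT1G78600) was tightly grouped, at 3.64, 3.67, 3.57 and 3.73 in WT and at 5.25, 5.19, 5.41 and 5.40 in *cca1lhy* (LFC 1.66 ± 0.13, adjusted p = 1.1e-08, limma). *BBX29* sat at the threshold (LFC 1.01 ± 0.16, adjusted p = 0.00023, limma), and its call was lost without any of 6 of the 8 libraries. No member of the PIF and shade list (11 genes) or of the photoreceptor list (11 genes) was a DEG. In each list 3 had an unadjusted p under 0.05 (limma), beside 14.7% of all genes tested. *PIF4*, a growth-promoting bHLH factor, and *PIF1*, a repressor of seed germination, passed the p threshold with opposite signs (LFC 0.73 and −0.92, adjusted p = 0.009 and 0.0023, limma).

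Of the cold-response genes 9 of 18 rose and none fell, beside 1.33% and 0.385% of all genes tested. Their median LFC was 1.01, in seedlings kept at 22 °C. *COR15B* (AT2G42530), which encodes a chloroplast protein that protects membranes during freezing, was at 4.89, 5.41, 3.92 and 3.73 in WT and at 7.66, 7.61, 8.31 and 8.37 in *cca1lhy*. Its adjacent copy *COR15A* (AT2G42540) was at 6.80, 7.32, 6.79 and 6.82 in WT and at 8.60, 8.42, 9.23 and 9.58 in *cca1lhy*. Both were separate between the genotypes, with LFCs of 3.50 ± 0.31 (adjusted p = 5.3e-08, limma) and 2.02 ± 0.28 (adjusted p = 4.8e-05, limma).

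*RD29A* (AT5G52310), a marker of cold and drought, was at 8.51, 8.29, 7.74 and 8.24 in WT and at 10.11, 10.34, 10.13 and 10.31 in *cca1lhy* (LFC 2.03 ± 0.20, adjusted p = 4e-07, limma). The dehydrin *LTI30* (LFC 1.45 ± 0.22, adjusted p = 0.00017, limma) was likewise separate. The upstream *CBF2* and *CBF3*, AP2 factors that switch on these genes, were weakly expressed: *CBF2* lay at 1.50 to 1.84 in WT and 2.28 to 4.03 in *cca1lhy*, the highest being replicate 2, and *CBF3* at 1.23 to 2.46 and 2.62 to 3.04. Both passed (LFC 1.18 ± 0.28 and 1.06 ± 0.24, adjusted p = 0.012 and 0.0094, limma), while *CBF1* did not and was at the lowest value in all but 1 library, *cca1lhy* replicate 2 (1.47). The 3 are near-identical tandem genes whose reads may be shared among them. *COR47*, *KIN2* and *GOLS3* completed the 9, with LFCs of 1.19 to 1.38.

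Starch breakdown genes moved in both directions, with 3 of 19 higher and 1 lower. *PHS2* (AT3G46970), the cytosolic glucan phosphorylase, was at 4.20, 3.77, 3.57 and 3.92 in WT and at 6.69, 6.13, 7.09 and 6.97 in *cca1lhy* (LFC 2.86 ± 0.24, adjusted p = 2.5e-08, limma). *BAM9* (AT5G18670), a β-amylase family member without catalytic activity, went the other way, from 8.24, 8.07, 7.36 and 7.92 in WT to 5.19, 5.72, 5.37 and 5.10 in *cca1lhy* (LFC −2.55 ± 0.21, adjusted p = 1.7e-08, limma). Neither overlapped. *AMY3*, a plastid α-amylase, and *GWD1*, the glucan water dikinase that starts starch breakdown, were higher (LFC 1.56 ± 0.27 and 1.40 ± 0.22, adjusted p = 0.00065 and 0.00023, limma). The other 15 were not called, and the median of the list, 0.42, went down to 0.19 without WT replicate 3. In 11 of the 19 the unadjusted p was under 0.05 (limma), beside 14.7% of all genes tested. *DPE2* passed the p threshold at a smaller fold (LFC 0.74, adjusted p = 0.02, limma).

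Of 16 genes that respond to sugar starvation or darkness 3 rose. *ASN1* (AT3G47340), asparagine synthetase, was at 2.59, 3.67, 3.36 and 2.59 in WT and at 7.13, 6.34, 6.02 and 6.75 in *cca1lhy* (LFC 3.51 ± 0.36, adjusted p = 4.9e-07, limma). *DIN10*, a raffinose synthase-like gene, lay at 4.56 to 5.37 in WT and 6.16 to 7.65 in *cca1lhy* (LFC 1.84 ± 0.31, adjusted p = 0.00045, limma). *SEN1*, a senescence-associated gene, varied more, from 3.22 to 4.89 in WT and 5.22 to 6.95 in the mutant (LFC 2.27 ± 0.59, adjusted p = 0.026, limma), and lost its call without any of 5 single libraries. The other 13 had LFCs between −0.41 and 0.37.

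Of 19 light-harvesting genes, which encode the chlorophyll-binding antenna proteins, 1 rose and none fell. The median LFC was 0.31, and 16 lay above zero, beside 48.2% of all genes tested. In 8 the unadjusted p was under 0.05 (limma), beside 14.7% of all genes tested. *LHCB2.3*, *LHCB4.2* and *LHCB5* passed the p threshold at smaller folds (LFC 0.96, 0.70 and 0.68, adjusted p = 0.0048, 0.0074 and 0.039, limma). *LHCB4.3* did so in the other direction (LFC −0.77, adjusted p = 0.049, limma). *LHCB1.4* (AT2G34430) was at 11.09, 11.58, 11.76 and 11.51 in WT and at 13.16, 13.16, 13.29 and 13.29 in *cca1lhy* (LFC 1.74 ± 0.21, adjusted p = 4.7e-06, limma). Among its relatives, *LHCB1.5* (AT2G34420), close to it by locus number, had an LFC of 0.23 and was not called. *LHCB1.1* and *LHCB1.2*, on chromosome 1, had LFCs of 0.31 and 0.21. *LHCB1.3* held the highest value of the table, 15.09, in all 8 libraries, where quantile normalization leaves no room for a difference. How reads were split among these genes is uncertain. *RBCS1B* (AT5G38430), a small subunit of Rubisco, was lower, from 12.37, 12.61, 12.81 and 12.53 in WT to 11.20, 10.76, 11.41 and 11.37 in *cca1lhy* (LFC −1.40 ± 0.17, adjusted p = 7.6e-06, limma), with the same reservation. *GLDP1* (AT4G33010), the P protein of glycine decarboxylase in photorespiration, fell from 12.24, 11.17, 11.81 and 11.86 to 10.59, 9.44, 10.18 and 10.17 (LFC −1.68 ± 0.23, adjusted p = 3.5e-05, limma). In whole seedlings fewer cells of a type and less RNA per cell cannot be told apart.

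Of 14 sulfate assimilation genes 2 fell and none rose, and 13 had an LFC below zero, beside 51.6% of all genes tested. The leaf markers lay on the same side (8 of 9 below zero, median −0.43), and their part in this was not tested. The 2 DEGs were *APR1*, an adenosine phosphosulfate reductase, and *SDI1*, a sulfur deficiency-induced repressor of glucosinolate synthesis (LFC −1.09 ± 0.28 and −1.11 ± 0.25, adjusted p = 0.023 and 0.0078, limma). *APR2* and *APR3* passed the p threshold at smaller folds (LFC −0.85 and −0.87, adjusted p = 0.0022 and 0.0027, limma). Of 18 aliphatic glucosinolate genes 1 fell and none rose, and all 18 had an LFC below zero, with a median of −0.47, the same as for sulfate assimilation (both −0.28 when centred on the reference genes). The DEG among them was *FMOGS-OX1*, a flavin monooxygenase that modifies side chains, at 4.27, 4.31, 4.39 and 4.39 in WT and 3.40, 3.19, 3.20 and 3.24 in *cca1lhy* (LFC −1.08 ± 0.26, adjusted p = 0.016, limma). The calls of *APR1*, *SDI1* and *FMOGS-OX1* were all lost when centred on the reference genes, and that of *APR1* also without any of 5 single libraries. *MS2*, a methionine synthase, also fell (LFC −1.52 ± 0.29, adjusted p = 0.002, limma).

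Of 14 flavonoid and anthocyanin genes tested 1 rose and 2 fell, with a median LFC of −0.35, and 4 had an LFC above zero. *CHS*, chalcone synthase at the entry of the pathway, was at 8.04, 8.40, 9.41 and 8.94 in WT and at 7.49, 7.28, 7.52 and 7.61 in *cca1lhy* (LFC −1.22 ± 0.28, adjusted p = 0.0097, limma). The WT libraries spread over more than 1 log2 unit and the mutant libraries over much less. *FLS1*, flavonol synthase, and *4CL3*, the 4-coumarate:CoA ligase that feeds the flavonoid branch, were also lower (LFC −1.03 ± 0.25 and −1.50 ± 0.26, adjusted p = 0.016 and 0.00054, limma). *MYBL2*, a repressor of the pathway, was higher (LFC 1.61 ± 0.28, adjusted p = 0.00062, limma). *PAP1*, a MYB activator of anthocyanin synthesis, did not overlap between the genotypes but was not called (LFC 0.92 ± 0.33, adjusted p = 0.14, limma), and *TT7* and *MYB111* had LFCs of 0.22 and 0.34. The call of *CHS* was lost without WT replicate 3, and that of *FLS1* without any of 4 single libraries, with array weights and when centred on the reference genes. *CHI*, chalcone isomerase (LFC −0.94 ± 0.18, adjusted p = 0.0022, limma), was called without WT replicate 1 or *cca1lhy* replicate 4.

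Heat shock genes held 1 DEG of 16, *HSP70-4*, a cytosolic chaperone that was lower in *cca1lhy* (LFC −1.17 ± 0.24, adjusted p = 0.0039, limma). Its call was lost when centred on the reference genes. In 8 of the 16 the unadjusted p was under 0.05 (limma), beside 14.7% of all genes tested. As single libraries were left out, 0 to 3 members were called higher and 1 to 2 lower, with list medians from −0.40 to 0.05. Small heat shock proteins varied between libraries of a genotype, *HSP17.4* from 1.84 to 4.39 in WT and from 2.81 to 5.63 in *cca1lhy*, the highest again being replicate 2, and were not called. No salicylate or jasmonate marker of the defence list (17 genes) was a DEG. In that list 1 member was at the lowest value in all 8 libraries, where no difference could show. The 9 chloroplast movement genes held none either, with a median LFC of −0.39. In 6 of them the unadjusted p was under 0.05 (limma), beside 14.7% of all genes tested.

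**Figure D3:**
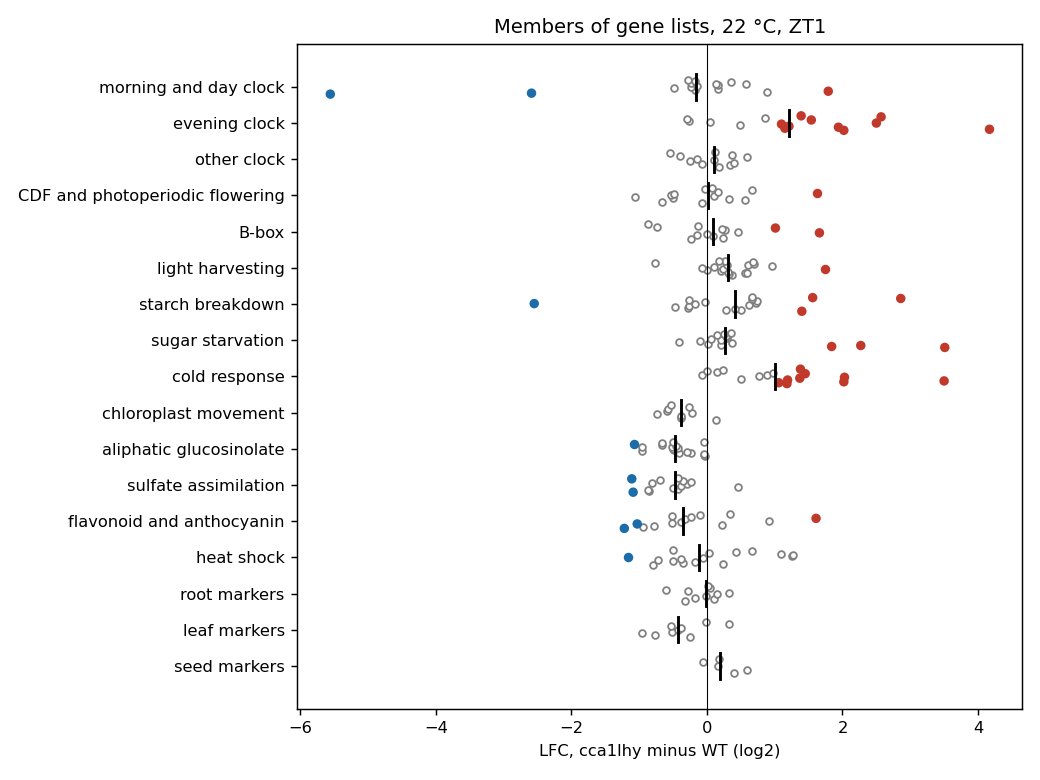
LFC of *cca1lhy* minus WT (horizontal axis, log2) for the tested members of 17 gene lists (rows), 1 point per gene, leaving out those with a genotype wholly at the lowest value, such as *FKF1* and *COR27*. Filled red and blue points are DEGs that are higher and lower, open points are not called and black bars are list medians; the evening clock (1.21) and the cold response (1.01) lie farthest to the right, and *CCA1* and *LHY* lie apart on the left.

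The genes with the largest changes outside the clock included several that were nearly silent in *cca1lhy*. *CNGC12* (AT2G46450) encodes an ion channel gated by cyclic nucleotides that acts in immunity. It was at 6.41, 5.78, 6.23 and 6.55 in WT and at 1.23, 2.77, 1.23 and 1.23 in *cca1lhy*, with 10 reads in replicate 2 and none in the other 3 (LFC −4.63 ± 0.29, adjusted p = 1.2e-10, limma). Its tandem copy *CNGC11* was at 3.22 to 3.78 in WT and at 1.50 to 2.06 in *cca1lhy* (LFC −1.71 ± 0.23, adjusted p = 3.2e-05, limma). The 2 channels are closely similar in sequence, so reads can be shared between them.

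*MRD1* (AT1G53480), of unknown function, was at 5.03, 5.07, 4.66 and 5.00 in WT and at 1.23, 1.47, 1.23 and 1.23 in *cca1lhy*, with 1 read in the 4 mutant libraries together (LFC −3.65 ± 0.22, adjusted p = 6.1e-11, limma). *HEI10* (AT1G53490), which encodes a RING protein of meiotic crossing-over, was at 4.99, 5.02, 4.71 and 4.98 in WT and at 1.50, 2.06, 1.82 and 1.23 in the mutant (LFC −3.27 ± 0.22, adjusted p = 6.9e-10, limma). In the reference the 2 genes overlap each other on opposite strands, and AT1G07887, which overlaps both, had the same 8 values as *MRD1* to 2 decimals. Without strand in the counting, reads of the 3 cannot be told apart, so they may count as 1 signal.

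Among the largest rises outside the lists, *MEE14* (AT2G15890), named for an embryo arrest phenotype, was at 2.41, 1.23, 1.81 and 1.53 in WT and at 4.96, 5.04, 5.29 and 5.05 in *cca1lhy* (LFC 3.34 ± 0.25, adjusted p = 2.9e-09, limma). *CCL* (AT3G26740), a clock-controlled gene whose mRNA is unstable, was at 3.11, 3.32, 2.13 and 2.59 in WT and at 5.82, 5.53, 6.21 and 6.02 in *cca1lhy* (LFC 3.11 ± 0.26, adjusted p = 1.8e-08, limma). Both hold an evening element, as printed above. The genes with the largest changes outside the lists were named only where the genotypes did not overlap, so their separation restates that choice.

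*CIPK20*, a CBL-interacting protein kinase, rose from 2.13 to 3.36 in WT to 5.84 to 6.33 in *cca1lhy* (LFC 3.14 ± 0.25, adjusted p = 8.7e-09, limma). *ADS2* (AT2G31360), a fatty acid desaturase that acts in the cold, was at 4.91, 4.56, 4.66 and 4.60 in WT and at 6.86, 7.04, 7.27 and 7.10 in the mutant (LFC 2.39 ± 0.13, adjusted p = 2e-11, limma). *RPP4*, a resistance gene against downy mildew, lay at 2.67 to 3.33 in WT and 4.90 to 6.83 in *cca1lhy* (LFC 2.68 ± 0.28, adjusted p = 6.6e-07, limma). *SAG29*, a sugar transporter of senescing leaves, was the last of the 12 largest falls among DEGs that did not overlap and have a reference symbol (LFC −1.27 ± 0.23, adjusted p = 0.0013, limma).

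**Figure D4:**
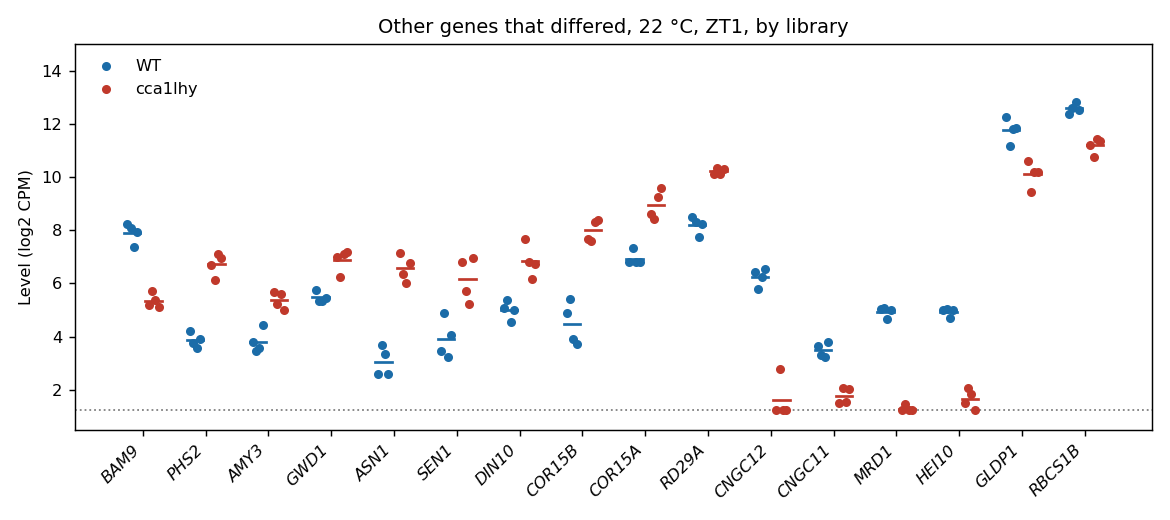
Levels of 16 genes of starch breakdown, sugar starvation, cold response and other functions in each library (vertical axis, log2 CPM), with WT in blue and *cca1lhy* in red, 1 point per library, bars for the group means and a dotted line at the lowest value in the table. The genotypes do not overlap in any of the 16, which was a condition for naming part of them, and *CNGC12* and *MRD1* lie on or near the dotted line in *cca1lhy*.

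Genes linked to the mutated loci by position were examined, since a cross carries along the chromosome around a mutation. The single mutants are both described as in Col-0, and whether the sequence around the mutations differs from WT was not tested. Differences linked by position and effects of the mutations cannot be told apart here. Of 200 tested genes within 100 positions on either side of *CCA1* on chromosome 2, 4 were DEGs (2.00%, Wilson 95% interval 0.78 to 5.03), beside 1.72% of all genes tested. They were *CNGC11* and *CNGC12*, lower, and *GH3.9*, of a family that conjugates auxin, and AT2G47670, higher (LFC 1.55 ± 0.29 and 1.31 ± 0.26, adjusted p = 0.0016 and 0.0024, limma). None lay within 25 positions. *PRR9* (AT2G46790), close to *CCA1* (AT2G46830) by locus number, missed the fold threshold but passed it in some settings, as given above. Within 200 positions of *CCA1*, 6 of 344 were DEGs (1.74%), among them *SOC1*. Around *LHY* on chromosome 1, 1 of 108 was a DEG (0.926%, interval 0.164 to 5.06): AT1G01390, at 4.20, 4.61, 4.21 and 4.08 in WT and 1.96, 2.22, 1.82 and 2.61 in *cca1lhy* (LFC −2.12 ± 0.25, adjusted p = 3.2e-06, limma).

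Published ChIP-seq target genes of the 2 factors, as collected by the study, were set against the DEGs. Of 1759 tested CCA1 targets 142 were higher (8.07%) and 5 lower (0.284%), beside 1.33% and 0.385% of all genes tested. Of 691 tested LHY targets 83 were higher (12.0%) and 4 lower (0.579%), and of 500 targets of both 76 were higher (15.2%) and 2 lower. The median LFCs of these 3 groups were 0.17, 0.23 and 0.29. Seen from the other side, CCA1 targets made up 41.4% of the DEGs that were higher and 5.05% of those that were lower. LHY targets made up 24.2% and 4.04%. Among all 25727 genes tested, 1759 were CCA1 targets and 691 LHY targets. Most targets, 1612 of the 1759 for CCA1 and 604 of the 691 for LHY, were not DEGs at this time of day.

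The evening element was present within the 300 bases around the start in 56 of 342 DEGs that were higher (16.4%, Wilson 95% interval 12.8 to 20.7), in 1 of 99 that were lower (1.01%, 0.179 to 5.50) and in 698 of 25692 genes tested (2.72%). Among genes with the element 8.02% were higher and among those without it 1.14%. Of the 11 evening clock genes that rose, 6 held it, those printed above, and so did 4 of the 6 that did not pass, *BOA*, *JMJ30*, *COR27* and *COR28*. Among CCA1 targets that were higher the share with the element was 30.3%, against 10.6% of all CCA1 targets tested. For *ELF4*, *GI*, *CHE*, *ELF3* and *PRR3* these letters were not in this window.

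The 3 other motifs, searched on both strands as well, were spread differently. The CCA1-binding site AAAAATCT, which shares no full match with the evening element, was in 8.19% of promoters of genes that were higher, 4.04% of those lower and 7.43% of all tested. The G-box CACGTG was in 9.65%, 15.2% and 7.99%, and TGGGCC in 13.5%, 7.07% and 16.3%. In cold-response genes that rose, 1 of 9 held the evening element and 4 of 9 a G-box. Over the whole cold-response list these were 2 of 18 and 6 of 18. A match is a description of the sequence, and binding was not measured in these seedlings.

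The same genotype contrast was available in other libraries of the same fit, at 37 °C (4 against 4) and at 10 °C (4 *cca1lhy* against 3 WT). Of the 343 DEGs higher at 22 °C, 208 were also DEGs in the same direction at 10 °C (60.6%) and 155 at 37 °C (45.2%), beside 1.12% and 1.31% of all genes tested that were higher there. Of the 99 that were lower, 37 (37.4%) and 22 (22.2%) were so, beside 0.455% and 0.824%. None was a DEG in the opposite direction at either temperature. At all 3 temperatures 126 were higher and 19 lower, while 106 and 59 were called at 22 °C alone of the 3.

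Sizes differed with temperature mainly at 37 °C. The DEGs that were higher had a median LFC of 1.36 at 22 °C, 1.20 at 10 °C and 0.97 at 37 °C, and those lower −1.13, −0.74 and −0.42, where the value at 22 °C comes from the libraries that chose the genes. An interaction of genotype with temperature was called at an adjusted p under 0.05 over all genes tested (limma). At 37 °C this held for 33 of the 343 and 21 of the 99 (0.913% of all genes). All had the smaller difference at 37 °C. Choosing the genes at 22 °C favours both that direction and the number called, so the share of all genes is not a like comparison. At 10 °C an interaction was called for none of the 442, and for 3 genes in all (0.0117%). Of the 442, 59 that were higher and 27 that were lower had an unadjusted p under 0.05 at 10 °C (limma).

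By name, *LHY* differed less between the genotypes at 37 °C (LFC −0.82) than at 22 °C (interaction 1.77 ± 0.28, adjusted p = 0.0018, limma), and *PRR5* likewise (LFC 2.48; interaction −1.69, adjusted p = 0.0031, limma). *BBX22* went from 1.66 at 22 °C to 0.24 at 37 °C and 2.31 at 10 °C, and *RD29A* from 2.03 to 0.15 and 0.70. *TOC1* and *LUX* had LFCs of 2.04 and 1.21 at 37 °C, and their interactions were 0.02 ± 0.28 and 0.00 ± 0.17. Over lists, 11, 8 and 11 of the 17 evening clock genes were higher at 22 °C, 37 °C and 10 °C, with median LFCs of 1.21, 0.91 and 1.24. In the cold-response list 9, 1 and 3 of 18 were higher, with medians of 1.01, 0.14 and 0.47. The evening counts and medians include *FKF1* and *COR27*, wholly at the lowest value in WT at 22 °C. Without them 10, 7 and 9 of 15 were higher, with the same medians.

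**Figure D5:**
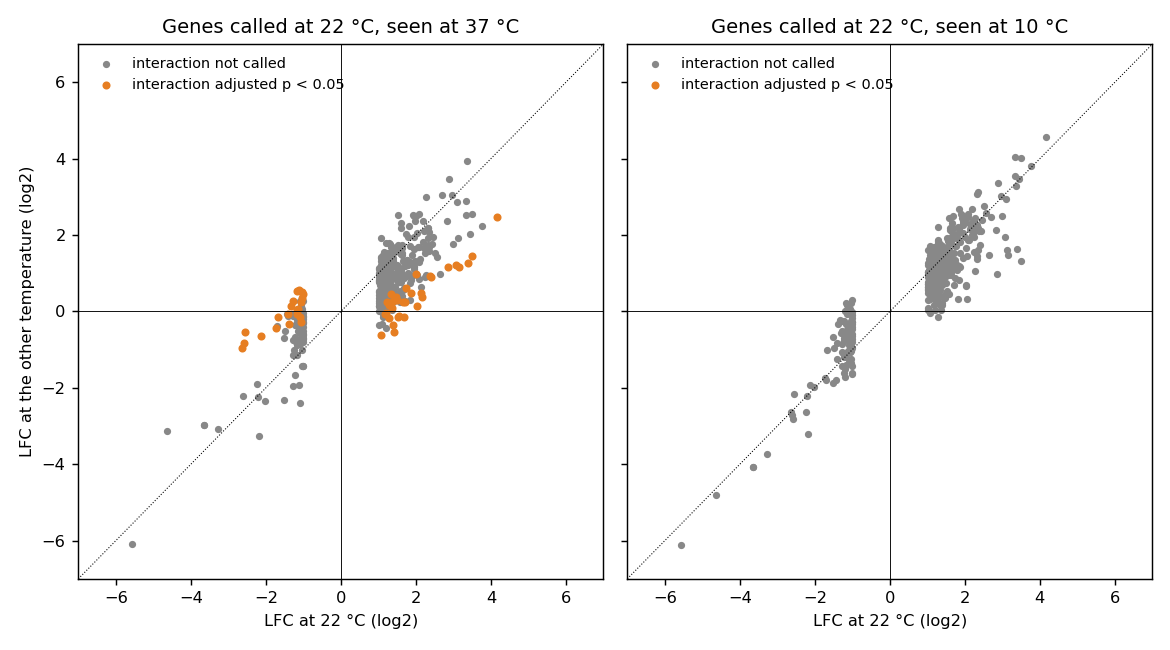
LFC of *cca1lhy* minus WT at 37 °C (left) and 10 °C (right) on the vertical axes against LFC at 22 °C on the horizontal axes (all log2), 1 point per DEG at 22 °C, leaving out the genes with a genotype wholly at the lowest value. Orange points have an interaction at an adjusted p under 0.05, grey points do not and the dotted line marks equal LFC; most points keep their sign, orange points occur at 37 °C and lie nearer to zero there than the dotted line, and none are orange at 10 °C.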

How the data were processed

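Reads of 75 bases from poly(A) RNA of whole seedlings were trimmed by the authors with cutadapt, aligned by TopHat2 (version 2.0.14), which ran on Bowtie2 (version 2.2.5), with TAIR10 as the genome, and counted in union mode over the exons of Araport11. The authors added 5 to each count, scaled the libraries with edgeR, applied voom of limma with quantile normalization and deposited log2 CPM, headed as CPM, for the 23 libraries at ZT1. Strand use and the handling of multiply mapped reads are not given in the sources used here. Quantile normalization gives every library the same distribution, so LFCs are relative to the median gene. The deposited fold changes, p-values and group means of the authors were not used. Columns without a sample numbered 0.

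The values were fitted here with limma (3.58.1, R 4.3.3; eBayes with a trend) over the 6 groups at ZT1, which share 1 estimate of the spread. The plan also named a count test, which did not apply because the values are log2 CPM. A gene was tested where 3 or more of the 23 libraries exceeded the lowest value. On simulated data for this contrast, over 25727 genes, 95% of genes changed by 1.5 (log2) and 100% of those changed by 3 were called. Of 25527 unchanged genes 2 were called. The changed genes were drawn only from those clearly above the lowest value, and the noise was normal and independent. Neither a lowest value nor deviations shared within a library were simulated, so these shares do not cover weakly expressed genes or such deviations. Reads were recovered from the steps between values and are exact up to 200 per gene (offset of 5.5, spread 0.00855 against 0.419 for 0.5); totals were within 11.9% in simulation. Counting intervals cover counting error only.

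Members, lists and named genes were chosen with earlier results of these data known. The text names *CCA1* and *LHY*, every clock gene listed as morning, day or evening, up to 4 DEGs with the largest LFC of each other list, the 12 largest rises and falls among separated DEGs with a reference symbol, DEGs within 100 positions of the mutated genes, and *MRD1* and *HEI10*; other genes were named after their values were seen. Lists were not tested as sets. Promoters are RefSeq, TAIR10.1; the authors' build is TAIR10, and no coordinates were converted. Of 37898 identifiers 37751 matched the reference. Alternatives covered the trend, filter, thresholds, samples fitted, scaling, array weights, a replicate block and each library left out.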

Additional observations from a re-analysis of the deposited data

Results flagged for a closer look

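In groups of 4 libraries, 10 values of named genes stood far from the other 3 of their group, out of 144 groups examined; chance alone would give about 1 in 20. In *cca1lhy* replicate 2, *CCA1* was at 5.29 (2.03 to 2.48 in the others), *CNGC12* at 2.77 (1.23), *MRD1* at 1.47 (1.23) and *MS2* at 6.90 (7.80 to 7.89). In *cca1lhy* replicate 3, *BBX29* was at 5.41 (5.99 to 6.04). In WT replicate 3, *CIPK20* was at 2.13 (3.19 to 3.36), *MRD1* at 4.66 (5.00 to 5.07) and *HEI10* at 4.71 (4.98 to 5.02). *COR28* was at 1.50 in WT replicate 1 (1.23) and *COR15A* at 7.32 in WT replicate 2 (6.79 to 6.82). For *CNGC12* and *MRD1* in *cca1lhy* and for *COR28* the other 3 values tie at the lowest value, so any read sets the library apart, and the 1.47 of *MRD1* is 1 read. The cause was not tested.

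The genotype difference at 37 °C departed from that at 22 °C in 12 named genes (interaction in limma, adjusted p from 0.00037 to 0.039), each time toward zero. These genes were named for their difference at 22 °C and the interaction uses the same libraries, so the choice favours that direction and the number called. The interaction, as LFC at 37 °C minus LFC at 22 °C, was positive for genes lower in *cca1lhy*: *LHY* (1.77), *BAM9* (2.01), *GLDP1* (1.52), *RBCS1B* (1.32) and AT1G01390 (1.48). It was negative for genes that were higher: *PRR5* (−1.69), *BBX22* (−1.42), *PHS2* (−1.71), *COR15B* (−2.04), *RD29A* (−1.88), *CIPK20* (−1.97) and *ADS2* (−1.45).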

How the results depend on the processing

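The count of DEGs at 22 °C was 442 and lay between 419 and 472 as each library was left out, with 321 to 351 higher and 88 to 126 lower. It was 1086 with no LFC threshold (671 higher, 415 lower) and 1046 at an LFC beyond 0.5 (649 higher, 397 lower). Centring on 8 reference genes gave 588, of which 550 were higher and 38 lower, and shared 381 with the 442. By construction it raised list medians by 0.19, to 1.40 (evening clock), 0.30 (other clock), 0.21 (flowering), 0.27 (PIF), 0.06 (photoreceptor), 0.50 (light harvesting), 0.61 (starch breakdown), 1.20 (cold response), −0.28 (glucosinolate and sulfate assimilation), −0.16 (flavonoid), 0.08 (defence), 0.18 (root), −0.24 (leaf) and 0.13 (reference genes). With single libraries left out the medians of starch breakdown ran from 0.19 to 0.53, sulfate assimilation from −0.58 to −0.42, defence from −0.20 to −0.03 and leaf markers from −0.53 to −0.37. With all libraries and the deposited scaling, no gene within 25 positions of *CCA1* or *LHY* was called (0.0% of 50 and 33 genes). The replicate numbers share only a number: same-numbered libraries of the 2 genotypes deviated together at r of 0.15, 0.0181, −0.0196 and −0.225, and a fit with a replicate block called 446. WT replicate 2 and *cca1lhy* replicate 4 deviated together (r = 0.331); leaving out both, a setting chosen after seeing the data like the centring on 6 reference genes (432), gave 434. Of 70 genes named by rule and with an LFC, 59 kept their side of the main thresholds in every fit that tested them. None changed direction while called, and other thresholds were not applied gene by gene. The 11 others were *APR1*, *BBX29*, *CHS*, *COR28*, *ELF3*, *FLS1*, *FMOGS-OX1*, *HSP70-4*, *PRR9*, *SDI1* and *SEN1*. Genes outside these 70, among them *CDF2*, *CDF6* and *CHI*, also changed call as single libraries were left out. Libraries of 1.09 to 3.90 M reads limit what can be said of genes near the lowest value.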

Other observations

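DEGs that lie next to each other among tested genes were read off after the values were seen. On chromosome 4, *RPP4*, AT4G16870 and AT4G16880, its neighbours, rose: AT4G16870 was at 2.20 to 2.89 log2 CPM in WT and 4.92 to 6.99 in *cca1lhy* (LFC 3.37 ± 0.35, adjusted p = 5e-07, limma), and AT4G16880 at 2.79 to 3.67 and 4.84 to 5.03 (LFC 1.83 ± 0.23, adjusted p = 1.1e-05, limma). At 37 °C the LFCs of *RPP4*, AT4G16870 and AT4G16880 were 3.05, 3.94 and 0.96, and at 10 °C 2.46, 3.27 and 0.82, and AT4G16880 was not a DEG at either (adjusted p = 0.013 and 0.087, limma). In all 9 such runs of at least 3 DEGs were found, the longest of 5 on chromosome 3 around the receptor-like protein genes *RLP40* and *RLP41*. Some members of these runs overlap in the annotation, so their reads may be shared.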
